A study of Mus musculus with 24 samples.

Results

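The HoxC cluster is a row of homeobox genes on mouse chromosome 15, and its 9 protein-coding genes, Hoxc13, Hoxc12, Hoxc11, Hoxc10, Hoxc9, Hoxc8, Hoxc6, Hoxc5 and Hoxc4, were taken by name from the 21883 protein-coding genes of the annotation. They span 102921131 to 103036856 (mm10), a length of 116 kb, and all 9 were found. Acetylation of histone H3 at lysine 27 (H3K27ac), a mark of active promoters and enhancers, had been mapped by chromatin immunoprecipitation and sequencing in embryonic mouse limb buds. Of the 24 samples of the series, 4 with H3K27ac peaks are described: a control at embryonic day E11.5, Sox9null limb buds at E11.5, a control at E12.5 and Sox9cKO limb buds at E12.5. Sox9 is the transcription factor required for cartilage formation, and the series set control against Sox9-deficient limb buds for several histone marks. The labels give no allele, Cre driver, strain, number of embryos or separation of fore- and hindlimbs, so each library is known only by genotype and stage.

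Hox genes encode homeodomain transcription factors that give cells a position along the body axis, and their order on the chromosome follows the order in which they act from neck to tail. Genes of the low-numbered paralog groups act toward the head, and those related to the fly gene Abdominal-B, from Hoxc9 to Hoxc13 in this cluster, act toward the tail. In the limb bud the posterior HoxA and HoxD genes pattern the proximal, middle and distal segments. HoxC genes are known there for a difference between limbs, with Hoxc10 and Hoxc11 active in the hindlimb bud, where the hindlimb regulators Pitx1 and Tbx4 are also expressed.

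The lists held from 28419 to 36937 peaks over 52.0 to 66.7 Mb, with median peak widths from 1141 to 1778 bp. No depth in reads is known, and the number and width of called peaks depend on it. There was 1 library per group, so differences have no test and hold for these libraries alone. Peaks lay over 96.6%, 55.8%, 81.3% and 54.3% of Sox9 itself, lower in both libraries labelled deficient than in either control, which does not tell the 2 deficient libraries from each other. Sample titles and deposited list names disagree on which deficient list is Sox9null and which is Sox9cKO. Titles decide here, hence "the library labelled", and deficient-minus-control differences are shown for both assignments. Wherever 4 values stand in a row, their order is control E11.5, labelled Sox9null E11.5, control E12.5 and labelled Sox9cKO E12.5.

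A pair of microRNA genes lies inside the cluster, and their mature sequences are shown because one sat in the part of the cluster that was marked in every list and the other in the part that differed between lists. Mir196a-2 lies between Hoxc10 and Hoxc9 (102973350 to 102973434), and its main product is known to target HoxB and HoxC messengers, Hoxb8 and Hoxc8 among them. Mir615 lies within Hoxc5 (103014910 to 103015001). Sequences are from RefSeq (GRCm38.p6, the assembly of mm10) and are on the plus strand for both genes, with the seed, bases 2 to 8, in capitals.
miR-196a-5p: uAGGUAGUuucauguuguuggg
miR-196a-2-3p: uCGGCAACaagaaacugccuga
miR-615-5p: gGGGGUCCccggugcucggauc
miR-615-3p: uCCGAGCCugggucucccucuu
For comparison, Mir196b in the HoxA cluster (chromosome 6, minus strand) gives a product with the same seed as miR-196a-5p.
miR-196b-5p: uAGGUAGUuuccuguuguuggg
The third copy, Mir196a-1 near the HoxB genes, gives the same mature 5p sequence as Mir196a-2.

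Peaks covered a block from Hotair to Hoxc9 in every list, while both ends of the cluster held few peaks and the genes from Hoxc8 to Hoxc4 were marked to different extents. Of the whole cluster 46.2%, 38.6%, 40.2% and 49.7% lay under peaks, or 53.5, 44.6, 46.6 and 57.5 kb. All 4 lists shared 39.1 kb of this (33.7% of the cluster), and 51.7 kb (44.7%) were under a peak in no list. The E11.5 control had 17 peaks over the cluster, against 8 in the library labelled Sox9null, 8 in the E12.5 control and 9 in the library labelled Sox9cKO. The median width of its cluster peaks was 1165 bp against 2670.5, 2775.5 and 2145 bp, and 6 of the 17 scored below 100, against 1, 2 and 2 in the other lists.

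**Figure D1:**
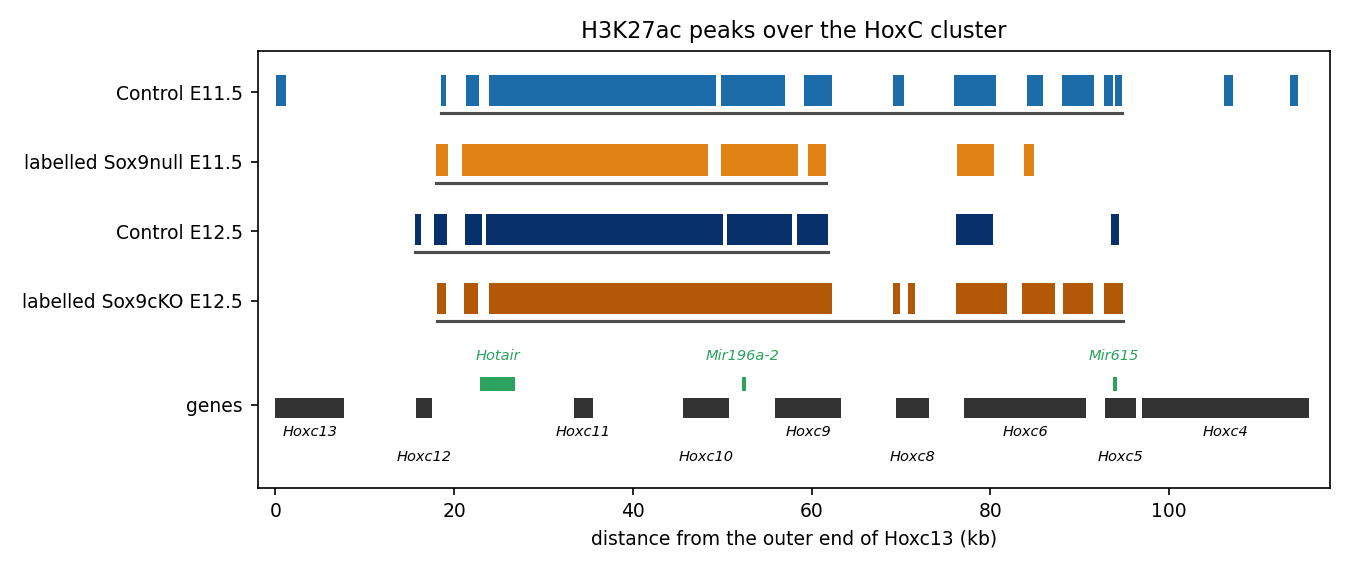
Map of H3K27ac peaks over the HoxC cluster: the x axis is the distance in kb from the outer end of Hoxc13, each row is the peak list of 1 library, coloured boxes are peaks, and the grey line under each row is the active domain, the run of peaks with gaps of at most 10 kb. Genes are dark boxes at the bottom, with Hotair and the microRNA genes in green; the block from Hotair to Hoxc9 is present in all 4 rows, and the domain reaches Hoxc5 in the rows of the E11.5 control and the library labelled Sox9cKO.

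The broad block over Hotair, Hoxc11 and Hoxc10 was among the widest peaks of each list. Its widest peak measured 25407 bp in the E11.5 control, 27462 bp in the library labelled Sox9null, 26540 bp in the E12.5 control and 38376 bp in the library labelled Sox9cKO. By width these peaks ranked 3, 6, 4 and 3 in their lists, where rank 1 and rank 2 were peaks of the HoxA and HoxD clusters in every list. In each list this peak had the authors' score of 3100, a value that 1588, 702, 1325 and 2772 peaks shared, so that the score does not order it any further. A stretch of 24.4 kb (102945064 to 102969513) was covered in all 4 lists without a break. Between Hotair and the end of Hoxc9, 88.4%, 89.3%, 93.1% and 95.03% of the sequence was under peaks.

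Hoxc13, known for hair and nail formation, lies at the tail-most end of the cluster (102921131 to 102928814). A single peak of 1165 bp with a score of 107.29 covered 15.2% of the gene in the E11.5 control, and no peak touched it in the other 3 lists. A stretch of 14.4 kb from within Hoxc13 to the start of Hoxc12 (102922365 to 102936801) was free of peaks in all 4 lists.

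Hoxc12 (102936826 to 102938609) had a peak over 34.9% of its length in the E12.5 control, with a score of 53.73, which is higher than 2.62% of that list. It had no peak over its body in the other lists. A small peak just beyond the gene, with scores of 57.46, 111.22, 136.2 and 121.54, was present in every list and came within 1000 bp of the gene end in all lists except the E11.5 control. Together these values show low-scored marking on the near side of Hoxc12 and next to none from there to Hoxc13.

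Hotair, a long noncoding RNA gene between Hoxc12 and Hoxc11 (102944062 to 102947946), was covered over 74.2%, 100%, 88.4% and 74.8% of its length. The peak that met it began at 102942052 in the library labelled Sox9null. In the E11.5 control, the E12.5 control and the library labelled Sox9cKO the broad peak was preceded by a separate one of 1470, 1988 and 1529 bp, across a gap of 1135, 451 and 1224 bp that took in part of Hotair. The separate peak of the E12.5 control reached into the gene.

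Hoxc11 and Hoxc10, both known from the hindlimb bud and from lumbar spinal cord, lay inside the block. Hoxc11 (102954526 to 102956701) was covered over 100% of its length in each list. Hoxc10 (102966796 to 102971898) was covered over 90.3%, 71.8%, 93.0% and 100%. Its uncovered part was one gap near the right end of the gene, of 494 bp in the E11.5 control, 1438 bp in the library labelled Sox9null and 358 bp in the E12.5 control, while the library labelled Sox9cKO had no gap there. In covered share the lists thus differed at Hoxc10 by the width of a single gap and not at Hoxc11. There the share was at its maximum and the score at the shared value of 3100, so neither can show a difference in signal.

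Hoxc9, which sets thoracic motor neuron identity in the spinal cord (102977032 to 102984444), was covered over 56.8%, 61.7%, 73.2% and 86.2%. Its best peak scored 3100, 922.19, 1950.56 and 3100, higher than 95.2%, 82.3%, 90.8% and 92.1% of the peaks of its list. Mir196a-2, just before Hoxc9, was wholly under peaks in all 4 lists. So was Mir196b in HoxA, whereas Mir196a-1 had no peak in any list.

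From the last part of Hoxc9 to the start of Hoxc8 a stretch of 6.78 kb (102983465 to 102990239) was free of peaks in all 4 lists. In the E11.5 control and the library labelled Sox9cKO, peaks resumed at Hoxc8. In the library labelled Sox9null and the E12.5 control, the gap ran on over all of Hoxc8, for 14.7 and 14.3 kb, to the region before Hoxc6.

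Hoxc8, which patterns the thoracic skeleton and brachial motor neurons (102990539 to 102994275), was covered over 26.6%, 0%, 0% and 36.8%, so that 2 lists had no peak on it. Its peaks scored low, 127.22 in the E11.5 control and 84.12 and 65.28 in the library labelled Sox9cKO. The best of them stood above 44.0% and 25.8% of the peaks of their lists.

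Hoxc6, known for its anterior border near the level of the forelimb (102998226 to 103011882), was covered over 57.7%, 32.2%, 23.6% and 80.9%. Its left end, together with the noncoding gene Gm29905 beside it, carried a peak in all 4 lists, with best scores of 1959.45, 941.15, 1452.19 and 3100. These scores were higher than 90.7%, 82.7%, 86.8% and 92.1% of the peaks of their lists. The lists parted over the rest of the gene. A region of 3699 bp in its middle (103004729 to 103008427) was covered over 1719, 1098, 0 and 3699 bp, with best scores of 281.4, 59.04 and 894.76 in the 3 lists that marked it. A region of 3550 bp near its right end (103009208 to 103012757) was marked in the E11.5 control, with a best score of 453.07, and in the library labelled Sox9cKO, with 487.08, and in neither other list.

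Hoxc5, a gene of the neck region (103014008 to 103017429), was covered over 45.03%, 0%, 26.5% and 57.2%. The best scores in the 3 lists with a peak were 100.43, 69.5 and 366.76. Mir615 within it was wholly under a peak in the E12.5 control and in the library labelled Sox9cKO. In the E11.5 control it fell into a gap of 279 bp between 2 peaks, and in the library labelled Sox9null no peak touched Hoxc5.

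Hoxc4, the head-most gene (103018097 to 103036856), had 2 peaks in the E11.5 control, over 9.70% of its length, with scores of 65.7 and 93.66. It had none in the other 3 lists, and a stretch of 11.4 kb from within Hoxc5 into Hoxc4 was free of peaks in all 4. It was the 1 HoxC gene with no peak within 1000 bp of either gene end in any list, a state shared by 39.9% of all protein-coding genes. Its promoter window was the single HoxC entry in the RefSeq promoter table, and is shown because no peak covered it in any list. It runs from 250 bases before to 50 after the listed start (chr15:103034145-103034444, plus strand, GRCm38.p6), with CpG dinucleotides in capitals.
Hoxc4 promoter: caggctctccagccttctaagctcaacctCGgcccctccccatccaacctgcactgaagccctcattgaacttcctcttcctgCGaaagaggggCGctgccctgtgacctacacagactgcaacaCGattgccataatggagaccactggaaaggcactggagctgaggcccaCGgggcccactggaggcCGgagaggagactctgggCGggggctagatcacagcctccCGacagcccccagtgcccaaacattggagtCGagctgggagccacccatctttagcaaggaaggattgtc
The window held 9 CpG dinucleotides (the letters CG, the same on both strands) and 60.3% G and C. A CpG was found in 94.6% of the 32851 promoter windows of this length, and 54.2% of them held fewer than 9. No peak covered any base of the window in any list. The nearest peak began 200 bp to its right in the E11.5 control and lay 28125, 18585 and 18182 bp away in the others. The listed start lies inside the annotated gene, over 1000 bp from either of its ends. The peak near it in the E11.5 control was therefore not counted as a gene-end peak. With gene ends taken to 2000 bp, all 9 members had one in that list.

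**Figure D2:**
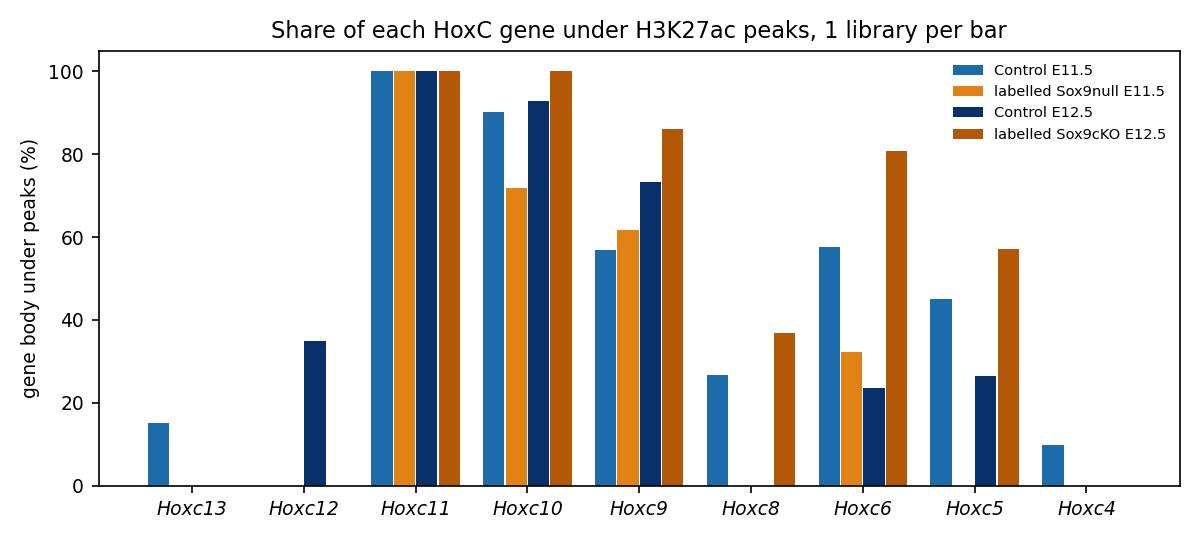
Share of each HoxC gene body under H3K27ac peaks in percent (y axis), with the genes in chromosomal order from Hoxc13 to Hoxc4 (x axis) and 1 bar per library. Hoxc11 was at 100% in all 4 libraries, whereas Hoxc8 was at 0% in the library labelled Sox9null and the E12.5 control.

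Counts over the members follow from this map. At least 50% of the gene body was covered in 4, 3, 3 and 5 of the 9 members, against 2.91%, 2.88%, 3.02% and 3.37% of all protein-coding genes. Hoxc11, Hoxc10 and Hoxc9 met this in all 4 lists (2.36% of all genes). A peak within 1000 bp of a gene end, a looser measure, was present for 7, 5, 6 and 7 of the 9 members, against 56.9%, 51.9%, 53.3% and 57.7% of all genes. In all 4 lists it was present for 4 members, Hoxc11, Hoxc10, Hoxc9 and Hoxc6, and 50% of all genes. With 9 members, these counts were nearest the share of all genes in the library labelled Sox9null and over all 4 lists. They are not read as a result about the members. Neighbouring members share broad peaks, so these counts are not counts of independent genes.

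The borders of the active domain, taken as the run of peaks joined over gaps of at most 10 kb, lay close together on the tail side and apart on the head side. The left border was at 102939619, 102939048, 102936802 and 102939219, between Hoxc12 and Hotair except in the E12.5 control, where the weak peak at Hoxc12 moved it to the far side of that gene. Its right border was within Hoxc5 for the E11.5 control (103015827) and for the library labelled Sox9cKO (103015963). In the library labelled Sox9null (102982764) and in the E12.5 control (102983019) it was within Hoxc9. The domain was 76.2, 43.7, 46.2 and 76.7 kb long at this gap. It held Hoxc11, Hoxc10, Hoxc9, Hoxc8 and Hoxc6 whole in the 2 longer cases. Both the score and the gap rule set the right border: with peaks in the upper 50% of scores of their list the 4 domains were 40.4, 40.7, 40.7 and 41.1 kb, and with gaps of at most 5 kb they were 43.8, 43.7, 46.2 and 44.2 kb. With gaps of at most 20 kb they were 114.3, 67.0, 78.8 and 76.7 kb, and the E12.5 control was then longer than the library labelled Sox9cKO.

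Cut between Hoxc9 and Hoxc8, the 2 parts of the cluster differed in how much they varied between libraries. The cut was placed after the values were seen, so this contrast follows in part from its choice and was not tested. From Hoxc13 to Hoxc9, 38.9, 39.5, 41.5 and 41.0 kb were covered. From Hoxc8 to Hoxc4, 14.4, 5.16, 5.07 and 16.2 kb were covered, which is 26.8%, 11.6%, 10.9% and 28.2% of the coverage of the cluster. The E11.5 control and the library labelled Sox9cKO were high over this second part, and the other 2 were low. All that the library labelled Sox9null and the E12.5 control had there (100% of each) lay under peaks of the library labelled Sox9cKO, of which it was 31.7% and 31.2%. With peaks in the upper 50% of scores of their list, 8.18, 4.06, 4.16 and 14.9 kb were covered from Hoxc8 to Hoxc4, with the same 2 lists highest.

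Deficient minus control, the covered length of the cluster differed by -8.86 kb at E11.5 and, with the opposite sign, by 10.9 kb at E12.5, by label. From Hoxc8 to Hoxc4 the differences were -9.20 and 11.2 kb, and from Hoxc13 to Hoxc9 they were 0.577 and -0.534 kb. Under the other assignment of the deficient lists, the value from Hoxc8 to Hoxc4 was 1.89 kb for E11.5 and 0.089 kb for E12.5, from Hoxc13 to Hoxc9 2.06 and -2.02 kb, and over the cluster 4.01 and -1.93 kb. The size of the E11.5 difference over the cluster depended on the setting, with -4.17 kb for peaks in the upper 50% of scores and -16.7 kb when each list was scaled by all the sequence it covers. After that scaling the differences from Hoxc13 to Hoxc9 were -5.15 and 3.36 kb, larger and of the other sign. The mean of both deficient lists minus the mean of both controls, which does not depend on the assignment, was 1.04 kb over the cluster, 3.54 kb for peaks in the upper 50% of scores and -0.778 kb after the scaling. Of the 9 members 0 had less of the body covered in both deficient lists than in either control (8% of genes with any peak over their body), and 0 had more (15.1%).

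Between the controls, E12.5 minus E11.5 was -6.94 kb over the cluster, -9.29 kb from Hoxc8 to Hoxc4 and 2.59 kb from Hoxc13 to Hoxc9. The value over the cluster was -1.24 kb for peaks in the upper 50% of scores and -19.7 kb after the same scaling. The value from Hoxc13 to Hoxc9 was -7.48 kb after scaling, as the E12.5 control list covers more sequence in all. By title, Hoxc10 and Hoxc9, 2 of the 9 members, had less of the body covered in both E11.5 lists than in either E12.5 list. Of genes with a peak over their body 19% did so, and the count is near this background. More in both E11.5 lists was found in 0 members, against 5.14% of those genes. Under the other assignment of the deficient lists, the E11.5 lists are the E11.5 control and the library labelled Sox9cKO, and the members change. Hoxc8, Hoxc6 and Hoxc5 were covered by more in the E11.5 control and the library labelled Sox9cKO than in each of the other 2 lists, and 0 members by less (17.2%). That is 3 of 9 members, against 28.5% of all genes with a peak over their body, a share near this background.

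Of 4 genes that mark limb type, Tbx5 was split between the lists like Hoxc8 to Hoxc4 and the other 3 were not. Within 20 kb of Tbx5, the forelimb regulator, 31.7, 0, 3.76 and 32.6 kb were under peaks. The hindlimb regulators were marked in all 4 lists, Tbx4 over 29.7, 38.1, 34.3 and 31.9 kb, and Pitx1 over 16.0, 17.9, 18.3 and 17.5 kb. Isl1, which acts in hindlimb progenitors, had 1.74, 2.31, 1.56 and 1.8 kb. The part of limb type in the HoxC values was not tested.

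**Figure D3:**
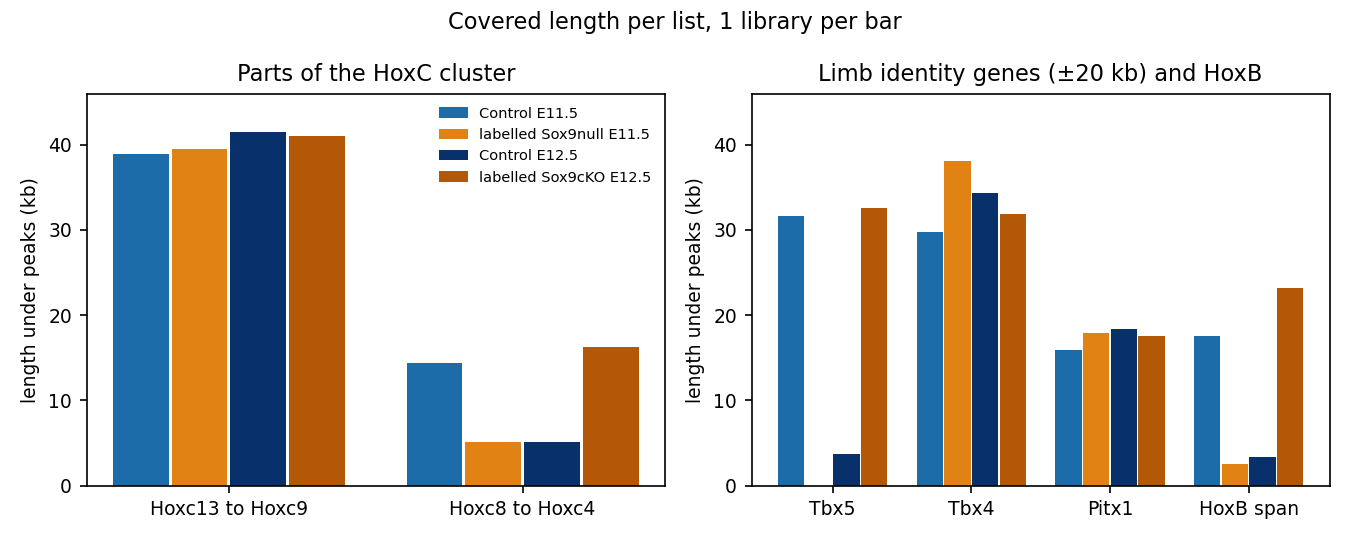
Length under H3K27ac peaks in kb (y axis) for the 2 parts of the HoxC cluster on the left, and for Tbx5, Tbx4 and Pitx1 (gene body plus 20 kb on each side) and the span of the HoxB genes on the right, with 1 bar per library. From Hoxc8 to Hoxc4, over Tbx5 and over HoxB the E11.5 control and the library labelled Sox9cKO were high and the other 2 low; over Tbx4 and Pitx1 all 4 were marked.

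All 7 markers of limb bud mesenchyme had a peak near a gene end in each library, as did some markers of other tissues named below. Of all protein-coding genes 50% had one in all 4 lists, and 56.9%, 51.9%, 53.3% and 57.7% in the single lists. These shares stand beside each marker count here and below. The 7 genes had 100.6, 116, 123 and 114 kb covered in all within 20 kb of the genes, the window used for every marker. Neural tube, where HoxC genes are also active, was little marked: 1, 0, 0 and 1 of its 12 markers had a gene-end peak, with 4.04, 2.63, 5.08 and 5.54 kb in sum. Sox2, Sox3, Olig2, Nkx2-2, Nkx6-1, Lhx3 and Chat were at 0 in all 4 lists. Elavl3 was covered in all 4 (2.64, 2.625, 4.057 and 3.59 kb), without a gene-end peak. Of 6 somite and axial markers 4, 2, 3 and 2 had a gene-end peak, with 19.7, 17.2, 20.1 and 23.8 kb in sum, and Uncx and Pax1 were at 0 in all 4. Pax3 was covered over 2.31 and 3.795 kb in the E11.5 control and the library labelled Sox9cKO and at 0 in the other 2. Tcf15 (4.105, 2.03, 1.229 and 3.757 kb) had the same 2 lists highest. Meox1 (7.998, 12.55, 12.15 and 11.8 kb) and Pax9 (5.288, 2.595, 6.712 and 4.489 kb) had other orders.

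Summed over vessel, blood and muscle markers, the same 2 libraries were the highest, though single genes such as Ptprc (0.581, 6.15, 4.97 and 2.43 kb) and Tek (0.748, 3.51, 2.72 and 1.85 kb) had other orders. Of 5 endothelial markers 2, 1, 1 and 4 had a gene-end peak, with 14.96, 11.9, 10.6 and 15.9 kb in sum, and Tie1 was at 0 in the library labelled Sox9null and the E12.5 control. Of 6 blood markers 3, 1, 1 and 3 had one, with 16.4, 16.1, 13.5 and 20.3 kb in sum. Tal1 was at 0 in those 2 lists and Hbb-bt in all 4. Of 6 muscle markers 1, 1, 1 and 2 had one, with 4.59, 3.73, 3.48 and 7.43 kb in sum. Myod1 and Actc1 were at 0 in all 4 lists. Of 7 ectoderm markers 4, 1, 2 and 3 had one, with 13.95, 12.2, 18.99 and 15.7 kb in sum. Krt14 was at 0 in all 4. Klf1 of the blood list (4.024, 4.453, 3.868 and 4.932 kb) and Myog of the muscle list (2.41, 2.475, 3.478 and 2.538 kb) had a gene-end peak in all 4 lists. So did Krt8 of the ectoderm list (5.589, 6.312, 7.417 and 4.938 kb) and Meox1 and Tcf15 of the somite list. The part of other cell types in the HoxC values was not tested. In these tissue libraries fewer cells of a type and less marking per cell cannot be told apart.

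Hox proteins bind DNA with cofactors of the TALE class, and of these Meis1 and Meis2, which mark the proximal limb bud, were split in the same way. Meis1 was covered over 15.4, 10.4, 10.6 and 19.04 kb and Meis2 over 14.8, 8.71, 10.9 and 18.6 kb. Meis3 had no peak within 20 kb in any list. Pbx2, over 13.8, 13.4, 12.7 and 13.6 kb, had the same 2 lists highest but by little. Other cofactor genes were marked in all 4 lists with other orders, Pbx3 over 6.44, 6.77, 8.82 and 5.87 kb and Pbx4 over 4.82, 3.79, 4.61 and 4.51 kb. Pknox1 had 5.95, 6.56, 6.98 and 7.04 kb and Pknox2 13.3, 12.7, 15.1 and 14.9 kb.

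Set beside the other Hox clusters, HoxC was covered by less than HoxA and to a similar extent as HoxD. HoxA was under peaks over 67.4%, 61.6%, 63.5% and 68.9% of its span, and HoxD over 48.1%, 36.04%, 39.1% and 48.5%. HoxB, without Hoxb13, was covered over 18.1%, 2.62%, 3.42% and 24.0%. In all 4 clusters the E11.5 control and the library labelled Sox9cKO were the 2 highest.

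The clusters differed at their tail-most genes. Hoxa13 and Hoxd13, which pattern the hand and foot plate, and Hoxd12 were covered over 100% of their length in each list, where Hoxc13 had 15.2%, 0%, 0% and 0%. Hoxb13 had no peak. In paralog group 11, Hoxa11, Hoxc11 and Hoxd11 were all at 100% in each list.

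At the head end several paralogs of HoxC genes were split between the lists in the same way. In paralog group 8, Hoxb8 had 44.8%, 0%, 0% and 44.9%, Hoxc8 26.6%, 0%, 0% and 36.8%, and Hoxd8 100%, 52.4%, 54.3% and 100%. In group 6, Hoxa6 had 100%, 93.1%, 94.8% and 100%, and Hoxb6 18.55%, 0%, 0% and 10.05%. In group 5, Hoxa5 had 99.0%, 56.6%, 60.9% and 75.2%, and Hoxb5 62.5%, 0%, 0% and 37.9%. In group 4, Hoxa4 had 37.2%, 0%, 0% and 49.5%, Hoxb4 70.7%, 0%, 0% and 82.1%, and Hoxd4 8.12%, 0%, 0% and 0%. In each of these genes the library labelled Sox9null and the E12.5 control were at or below the other 2, and for Hoxc4 and Hoxd4 the library labelled Sox9cKO was also at 0. The split was not confined to the head end, as Hoxb9 of group 9 had 15.95%, 0%, 0% and 30.1%. More coverage in the E11.5 control and the library labelled Sox9cKO than in each other list was found in 28.5% of all genes with a peak over their body. Whether HoxC differed from the other clusters in this was not tested.

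**Figure D4:**
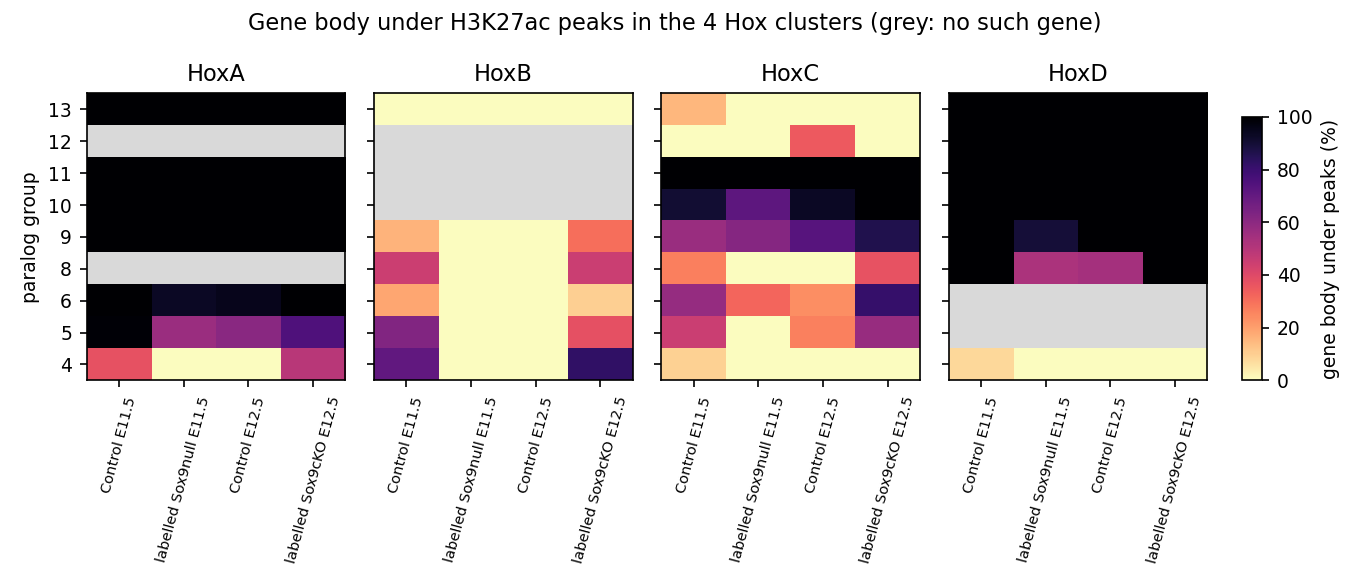
Share of the gene body under H3K27ac peaks (colour, 0 to 100%) in the 4 Hox clusters (panels) and 4 libraries (columns). Rows are the paralog groups that have a HoxC gene, groups 4, 5, 6 and 8 to 13, with grey where a cluster has no gene of that group. Groups 10 and 11 are dark in every library where a cluster has them, and group 13 is dark in HoxA and HoxD but pale in HoxC. Most genes of groups 4, 5, 6 and 8 are darker in the E11.5 control and the library labelled Sox9cKO, though not Hoxc4 and Hoxd4 in the latter.

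Over the flanks, 200 kb on each side, peaks were sparse and most of them were near other genes. The left flank was covered over 13.9, 12.1, 11.7 and 15.7 kb and the right flank over 10.05, 13.2, 14.0 and 19.1 kb, from 5.02% to 9.55% of either flank. Between 102784185 and the outer end of Hoxc13 no list had a peak. Calcoco1, an autophagy receptor gene at the far left, and Cbx5, which encodes a heterochromatin protein, at the far right had a peak near a gene end in all 4 lists. The peak within Cbx5 scored 3100, 2839.72, 3100 and 3100. Smug1, a DNA repair gene, held a peak in each list with scores of 275.15, 177.74, 452.95 and 472.62.

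The left flank held one group of strong peaks, over the noncoding genes Gm36560 and Cistr (102742905 to 102756283). The peak over Cistr scored 1511.89, 613.01, 920.8 and 2013.83, higher than 87.4%, 74.0%, 78.85% and 86.7% of the peaks of its list. The next region, of 5433 bp, was covered over 4886, 4551, 5013 and 5433 bp. All 4 lists thus marked this group.

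On the right side, single regions divided the lists in more than one way. Of 12 merged regions 4 were marked in all 4 lists, 3 in the E11.5 control and the library labelled Sox9cKO alone, and 1 in the library labelled Sox9null and the E12.5 control alone. The regions of the E11.5 control and the library labelled Sox9cKO included one of 3175 bp at the end of the noncoding gene Gm30528, which overlaps Hoxc4, with best scores of 78.03 and 283.22. The region of the other 2 lists was one of 2573 bp within the noncoding gene D930007P13Rik, with scores of 70.55 and 145.76.

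**Figure D5:**
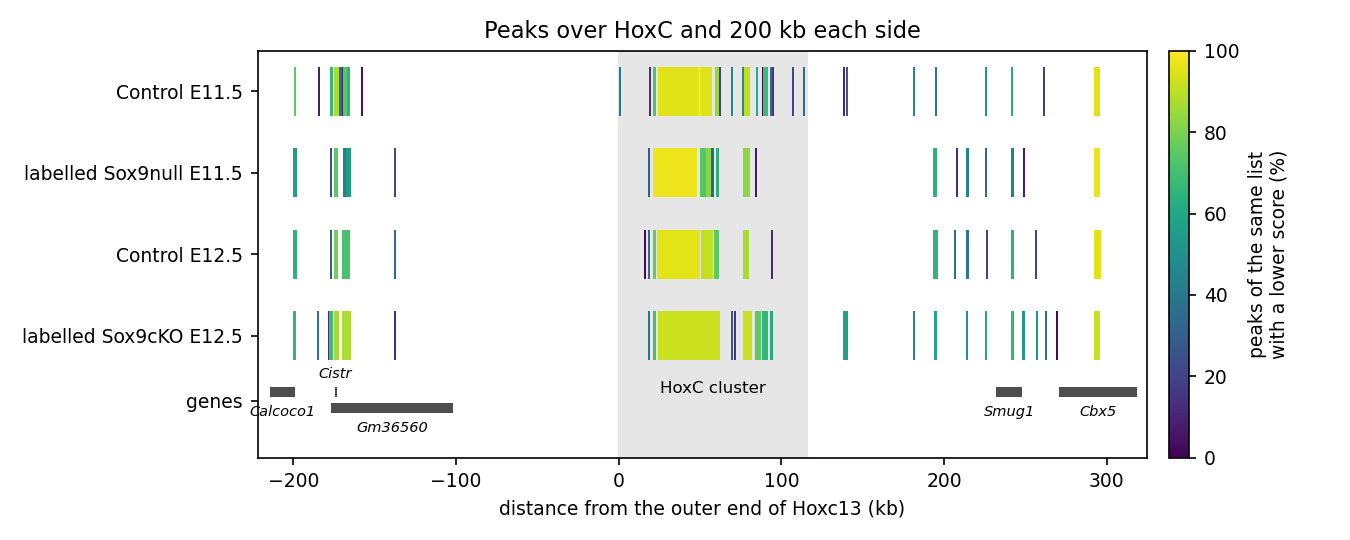
Peaks over the HoxC cluster (shaded) and 200 kb on each side, by distance in kb from the outer end of Hoxc13 (x axis), 1 row per library, with colour giving the share of the peaks of the same list that scored lower. Narrow peaks are drawn at least 1.2 kb wide so that they can be seen. The strongest marks outside the cluster are the group over Gm36560 and Cistr on the left and the peak within Cbx5 on the right.

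Other genes divided their coverage over the lists in nearly the same way. As shares of their sum, the lists held 26.5%, 22.1%, 23.0% and 28.4% of the HoxC coverage. Among 5479 genes with at least 20 kb in sum over body plus 20 kb on each side, the nearest patterns by Euclidean distance of these 4 shares were those of Rsbn1l, Rsl1d1, Unk, Fbxl16 and Rps18. Rps18, a ribosomal protein gene, was covered over 6.89, 5.81, 5.94 and 7.58 kb. Such a likeness rests on 4 libraries that differ in peak number and width.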

How the data were processed

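Peak lists of H3K27ac from mouse limb buds, 1 library per group, were used; 20 of the 24 libraries (other marks, inputs) were not analysed here. The deposited lists give a position and a score for each peak. The score is the authors' own, taken as such because the lists have no header, and served for ranks and thresholds inside each list. Peak names name MACS; version, settings, aligner and use of an input: not given in the sources used here. Per the submitters' processing notes the build was mm10, with CASAVA 1.8 and deepTools. Each list comes from 1 library.

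Starts were taken as counted from 0 and are printed counted from 1. Genes came from a RefSeq table of GRCm38.p6 without strands. Covered length is the union of peaks over an interval, overlap at least 1 bp. Members, lists and tests were chosen with earlier results of these data known; the split into Hoxc13 to Hoxc9 and Hoxc8 to Hoxc4 was made after the values were seen. Named were all members, genes inside the cluster, protein-coding genes within 200 kb, fixed lists of limb identity, cofactor (1 gene is not reported here) and marker genes, Hox paralogs and the 5 nearest patterns. Noncoding genes of the flanks were named after their values were seen. The counting was checked on simulated data. Python 3.11.15, numpy 2.4.6, pandas 2.3.3 and matplotlib 3.10.9 were used. Alternatives were stricter lists, other gaps and gene-end distances, wider windows, scaling and exchanged lists.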

Additional observations from a re-analysis of the deposited data

Results flagged for a closer look

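The difference between Sox9-deficient and control libraries had opposite signs at the 2 stages by label, with 1 library in each group, and the difference between stages was not tested. In the order E11.5 and E12.5, deficient minus control, it was -8.86 and 10.9 kb of the HoxC cluster covered, or 4.01 and -1.93 kb with the deficient lists exchanged as their deposited names have them. From Hoxc8 to Hoxc4 it was -9.20 and 11.2 kb, or 1.89 and 0.089 kb exchanged. From Hoxc13 to Hoxc9 it was 0.577 and -0.534 kb, or 2.06 and -2.02 kb exchanged, and -5.15 and 3.36 kb when scaled to the total covered length of each list. The active domain differed by -32.5 and 30.5 kb in length, or 0.536 and -2.50 kb exchanged. The opposite signs of the domain lengths held at the gap of 10 kb and with the 28419 best peaks of every list (-28.7 and 32.6 kb). They were lost with peaks in the upper 50% of scores (0.348 and 0.399 kb), with gaps of at most 5 kb (-0.129 and -2.02 kb) and with gaps of at most 20 kb (-47.4 and -2.01 kb). The number of members with a peak near a gene end differed by -2 and 1, or 0 and -1 exchanged. The part of the assignment, and of the forelimb gene Tbx5 (31.7, 0, 3.76 and 32.6 kb in the order control E11.5, labelled Sox9null, control E12.5, labelled Sox9cKO), was not tested.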

How the results depend on the processing

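No paired analysis was possible because each group has 1 library, and no test was run. With no replicates there is no error to set a shift against, so a value is called moved where it shifted by over 1.5 times. The main values were levels of single lists and differences between lists. Across the alternatives to both kinds, 57 stayed within that limit, 32 moved and 17 changed sign. Most of the 57 were levels of single lists, which cannot change sign. All 17 changes of sign were in differences between lists, which were thus less stable than the pooled counts. Differences are deficient minus control, E11.5 before E12.5, unless named. With peaks in the upper 50% of scores of their list, the E11.5 control had 4 members with a gene-end peak and a domain of 40.4 kb, and the library labelled Sox9cKO a domain of 41.1 kb. E12.5 minus E11.5 control was then -1.24 kb over the cluster and -4.02 kb from Hoxc8 to Hoxc4. The E11.5 difference was -4.17 kb over the cluster and -4.12 kb from Hoxc8 to Hoxc4, and those from Hoxc13 to Hoxc9 were -0.046 and 0.546 kb. Domain lengths then differed by 0.348 and 0.399 kb and gene-end counts by 0 at E11.5. The mean of both deficient minus both controls was 3.54 kb over the cluster, 0.25 kb from Hoxc13 to Hoxc9 and 3.29 kb from Hoxc8 to Hoxc4. With the 28419 best peaks of every list the E11.5 difference over the cluster was -5.51 kb, those from Hoxc13 to Hoxc9 were 1.73 and 0.112 kb, and gene-end counts differed by 2 at E12.5. The mean difference was then 3.07, 0.922 and 2.12 kb in the same order of places. With gaps of at most 5 kb the domain of the E11.5 control was 43.8 kb and that of the library labelled Sox9cKO 44.2 kb, with differences of -0.129 and -2.02 kb. With gaps of at most 20 kb the E11.5 control had 114.3 kb, the library labelled Sox9null 67.0 kb and the E12.5 control 78.8 kb, against 76.7 kb in the library labelled Sox9cKO, a difference of -2.01 kb at E12.5. With gene ends taken to 2000 bp the counts differed by -4 at E11.5. Exchanging the deficient lists gave 4.01 and -1.93 kb over the cluster, 2.06 and -2.02 kb from Hoxc13 to Hoxc9, 1.89 and 0.089 kb from Hoxc8 to Hoxc4, 0.536 and -2.50 kb of domain length, and 0 and -1 members. Scaling to the total covered length gave -19.7 kb for E12.5 minus E11.5 control over the cluster and -7.48 kb from Hoxc13 to Hoxc9. It gave -16.7 kb for the E11.5 difference over the cluster, and -5.15 and 3.36 kb from Hoxc13 to Hoxc9. The mean difference became -0.778 kb over the cluster, -0.895 kb from Hoxc13 to Hoxc9 and 0.106 kb from Hoxc8 to Hoxc4. The cause was not tested. The alternatives for the 2 parts of the cluster and for differences in domain length and member counts were chosen after seeing the data. Depth is unknown, so an unmarked gene may be one whose signal stayed under the threshold of the caller.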
